A study of Homo sapiens with 21 samples.

Results

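The genes described here encode core subunits of Polycomb repressive complex 1 (PRC1) and Polycomb repressive complex 2 (PRC2). They were taken from the gene count table by identifier: the Ensembl ID of each row, without its version, was matched to the gene symbols BMI1, PCGF2, RING1, RNF2, CBX2, CBX7, EZH1, EZH2, SUZ12 and EED. All 10 were found, 1 row each, among 42339 genes in the table. Of these 10 genes, 6 encode PRC1 subunits and 4 encode PRC2 subunits. The rule uses names and no measured value, but the genes were chosen with earlier results of these data known.

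RNA-seq libraries were made from total RNA of 21 cultures of BT-549, with 3 cultures in each of 7 groups, and the paper lists a stranded mRNA kit. BT-549 is an established triple-negative breast cancer (TNBC) cell line with wild-type BRCA1. The 2D cells grew as monolayers in RPMI1640 with serum and insulin, and the 3D cells grew as mammospheres, here at serial passage 6 (S6), in MammoCult medium on low-attachment plates. A further group of S6 3D cells received 0.75 μM GO-203, a cell-penetrating peptide that blocks the cytoplasmic domain of the MUC1-C subunit. The other 4 groups were mammospheres carrying a doxycycline (DOX)-inducible shRNA, tet-MUC1shRNA at S6 or tet-MYCshRNA at S8, each treated with 0.1% DMSO as vehicle or with 500 ng/ml DOX. Each shRNA line was selected with puromycin and carried a single hairpin, and no DOX-treated line with a control hairpin was analysed here, so an effect of the hairpin and an effect of DOX itself cannot be told apart. Growth format, medium and selection by serial passage as mammospheres likewise cannot be told apart between 2D and 3D cells. Nor can passage and hairpin be told apart between the vehicle-treated lines.

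Polycomb complexes keep developmental and cell-cycle genes silent by modifying histones. PRC1 is an E3 ligase that places ubiquitin on histone H2A: RING1 or RNF2 (RING1B) is its catalytic RING subunit, a PCGF protein such as BMI1 (PCGF4) or PCGF2 (MEL18) is the partner that the ligase requires, and a CBX protein such as CBX2 or CBX7 reads methylated histone H3. PRC2 methylates lysine 27 of histone H3: EZH2 or its paralog EZH1 is the methyltransferase, SUZ12 holds the complex together, and EED binds the methylated product and stimulates the enzyme. In many tissues EZH2 is high in dividing cells and EZH1 in resting cells. BMI1 is known for supporting self-renewal of stem cells, including those of the breast, and for repressing the CDKN2A locus.

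Libraries held 38026597 to 99751717 counts. The lowest count of any member in any library was 110, for CBX7. Values below are CPM, read counts relative to library size, scaled by TMM factors over the 21 libraries, and a gene was called changed at an adjusted p below 0.1 in edgeR's quasi-likelihood test over all genes tested. The labels name 3 cultures per group and no batch. The mesenchymal marker VIM had 1075 to 2485 CPM, while the epithelial markers KRT8, KRT18, CDH1 and EPCAM had at most 1.51 CPM in every library, although the labelled tissue is breast epithelium. ESR1 and PGR, which are lacking in TNBC, had at most 1.48 CPM, ERBB2 had 18.4 to 42.0 CPM, the leukocyte marker PTPRC had at most 1.49 CPM, and the endothelial marker PECAM1 had at most 10.1 CPM. The silenced genes were lower in the libraries labelled as silenced: MUC1 had 101, 83.1 and 86.6 CPM with vehicle and 19.7, 21.2 and 23.3 CPM with DOX in the tet-MUC1shRNA line, a log2 fold change of -2.06. MYC had 439, 418 and 386 CPM with vehicle and 244, 279 and 297 CPM with DOX in the tet-MYCshRNA line, a log2 fold change of -0.62.

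All 10 members were expressed in every library. Per kilobase of the annotated canonical transcript, SUZ12, RNF2, BMI1 and EZH2 were the 4 most abundant members in each of the 7 groups, and CBX2 and CBX7 were the 2 least abundant in 6 of the 7. In 2D cells, EZH1 stood between CBX2 and CBX7. In 3D cells, SUZ12 had 35.6 CPM per kilobase, RNF2 32.4, EZH2 28.8 and BMI1 25.9. EED followed at 12.8 CPM per kilobase, and EZH1, PCGF2 and RING1 lay between 3.79 and 4.71. CBX2 had 1.86 and CBX7 0.759 CPM per kilobase. The order inside the upper 4 moved with the group: EZH2 led in 2D cells and in vehicle-treated tet-MYCshRNA cells, RNF2 led in vehicle-treated tet-MUC1shRNA cells, and SUZ12 led in the other 4 groups. Dividing by the length of all annotated exons instead left the same genes in the upper 4, except in DOX-treated tet-MYCshRNA cells, where RING1 stood above EZH2, because the annotated exons of EZH2 (10774 bases) are much longer than its canonical transcript (2654 bases).

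**Figure D1:**
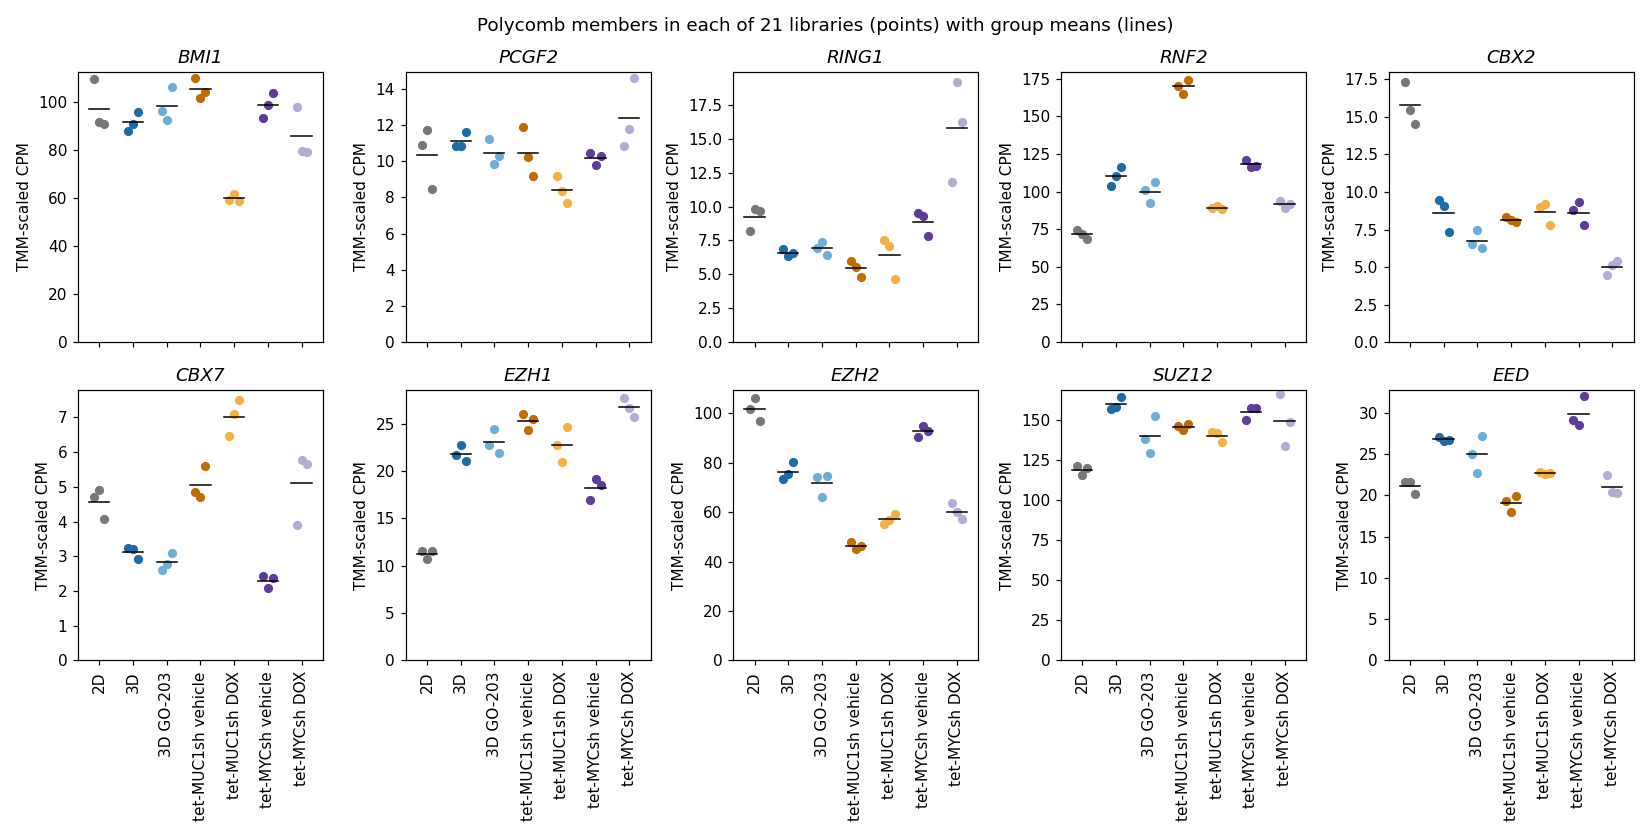
TMM-scaled CPM (vertical axes, each from 0) of the 10 Polycomb members in each of the 21 libraries (points), by group (horizontal axis), with lines at the group means of 3 libraries. RNF2 is highest and EZH2 lowest in vehicle-treated tet-MUC1shRNA cells, at means of 169.9 and 46.5 CPM, and BMI1 is lowest in DOX-treated cells of that line.

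The sequence just upstream of 4 of these genes is shown because BMI1 and RNF2 were called lower on silencing of both MUC1 and MYC, while EZH1 and EZH2 moved apart in 3D cells and on MYC silencing. The windows come from RefSeq promoters of build GRCh38.p14 and are written 5′ to 3′ on the strand of the gene, ending at the base before the first annotated exon. Capitals mark matches, on either strand, to CACGTG (the E-box that MYC and its partner MAX are known to bind) or TTTNNCGC (letters shared by E2F sites).
BMI1: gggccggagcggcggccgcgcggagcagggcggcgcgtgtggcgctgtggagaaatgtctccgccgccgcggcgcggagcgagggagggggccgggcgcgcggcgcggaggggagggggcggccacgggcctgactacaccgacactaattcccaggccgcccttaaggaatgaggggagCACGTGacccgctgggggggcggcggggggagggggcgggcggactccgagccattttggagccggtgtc
RNF2: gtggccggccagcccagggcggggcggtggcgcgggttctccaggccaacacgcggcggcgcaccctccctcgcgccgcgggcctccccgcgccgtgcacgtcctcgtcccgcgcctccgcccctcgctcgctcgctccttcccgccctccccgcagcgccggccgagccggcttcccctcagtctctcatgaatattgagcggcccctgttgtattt
EZH1: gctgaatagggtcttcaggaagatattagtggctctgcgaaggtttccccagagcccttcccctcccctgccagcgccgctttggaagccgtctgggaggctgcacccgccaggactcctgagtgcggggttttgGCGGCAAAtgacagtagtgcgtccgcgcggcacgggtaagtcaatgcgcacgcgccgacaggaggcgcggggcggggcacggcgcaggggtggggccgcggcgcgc
EZH2: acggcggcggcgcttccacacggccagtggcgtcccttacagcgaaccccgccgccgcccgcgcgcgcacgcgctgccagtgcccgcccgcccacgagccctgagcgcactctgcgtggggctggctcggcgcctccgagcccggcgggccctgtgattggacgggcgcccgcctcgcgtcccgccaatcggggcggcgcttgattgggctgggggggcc
These windows lie at chr10:22320849-22321098, plus strand, for BMI1, at chr1:185045308-185045525, plus strand, for RNF2, at chr17:42745050-42745290, minus strand, for EZH1, and at chr7:148884322-148884541, minus strand, for EZH2. The CACGTG of BMI1 begins 70 bases before the RefSeq start site. Among 35116 RefSeq promoters, 6.34% held CACGTG within the 250 bases before the start, and BMI1 was the 1 member of the 9 with a listed promoter that did. TTTNNCGC was found in 5.92% of all promoters and in those of EZH1 and SUZ12. These matches describe letters in a window and were not tested as binding sites.

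The first comparison asked how Polycomb transcripts differed between mammospheres and monolayers. In 3D cells, EZH1, RNF2, SUZ12 and EED rose and CBX2, CBX7, RING1 and EZH2 fell, so that 8 of 10 members were called, against 63.7% of all genes tested. The 4 that rose compare with 32.0% of all genes called higher and the 4 that fell with 31.7% called lower. The libraries of the 2 groups did not overlap for 8 members, against 64.2% of all genes. No member reached an absolute log2 fold change above 1.5, the size threshold in a figure caption of the study, which 16.2% of all genes passed. The main text of the study words this threshold as a fold change above 1.5, a size that was not counted here. The median absolute log2 fold change was 0.46 over the members and 0.50 over all 19190 genes tested. BMI1 and PCGF2 were not called, although BMI1 was called lower, at -0.15, when libraries were scaled by their totals alone. In bulk RNA, a change in the share of cells that express a gene and a change in its RNA per cell cannot be told apart.

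Among the PRC1 subunits, RNF2 (ENSG00000121481.11, chr1:185045526-185102603, plus strand), the more abundant catalytic RING subunit, had 74.4, 71.7 and 68.6 CPM in 2D cells and 104, 110.5 and 117 CPM in 3D cells. All 3 of its 3D libraries were above all 2D libraries, with a log2 fold change of 0.62 ± 0.06 (SE, adjusted p = 2.5e-07). The other catalytic subunit, RING1 (ENSG00000204227.5, chr6:33208500-33212722, plus strand), went the other way. It had 8.16, 9.84 and 9.64 CPM in 2D cells and 6.85, 6.36 and 6.57 CPM in 3D cells, and its log2 fold change was -0.49 ± 0.12 (SE, adjusted p = 0.0018). CBX2 (ENSG00000173894.11, chr17:79778148-79787983, plus strand), a chromodomain subunit that also compacts chromatin, had the largest fall of the 10 members. Its values were 17.4, 15.4 and 14.5 CPM in 2D cells and 9.49, 9.05 and 7.34 CPM in 3D cells, without overlap, and a log2 fold change of -0.88 ± 0.11 (SE, adjusted p = 5.6e-06). CBX7 (ENSG00000100307.13, chr22:39120167-39152680, minus strand), the chromodomain subunit known from stem cells, fell from 4.56 ± 0.435 CPM to 3.12 ± 0.169 CPM (SD, n = 3), a log2 fold change of -0.55 ± 0.15 (SE, adjusted p = 0.0054).

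For the PCGF pair the groups overlapped. BMI1 (ENSG00000168283.14, chr10:22321099-22331484, plus strand) had 109.5, 91.6 and 90.9 CPM in 2D cells and 87.9, 90.9 and 96 CPM in 3D cells. Its log2 fold change was -0.09, with a 95% interval of -0.25 to 0.06, and its value turned to 0.0034 without replicate 1 of the 2D cells. PCGF2 (ENSG00000277258.5, chr17:38733898-38749817, minus strand) had 10.9, 11.7 and 8.46 CPM in 2D cells and 10.9, 10.8 and 11.6 CPM in 3D cells, which gave a log2 fold change of 0.10 with an interval of -0.16 to 0.35, which turned to -0.031 without replicate 3 of the 2D cells. A change of BMI1 or PCGF2 mRNA larger than these intervals was therefore not seen in mammospheres. Of the exon bases of BMI1, 22.75% are shared with the read-through gene COMMD3-BMI1, so reads there could be counted for either gene.

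Among the PRC2 subunits, the methyltransferases moved in opposite directions. EZH1 (ENSG00000108799.13, chr17:42700275-42745049, minus strand) rose from 11.5, 10.7 and 11.5 CPM to 21.7, 22.7 and 21 CPM, with a log2 fold change of 0.95 ± 0.08 (SE, adjusted p = 6.2e-08), the largest among the members. EZH2 (ENSG00000106462.12, chr7:148807257-148884321, minus strand) had 102, 106 and 96.9 CPM in 2D cells and 73.3, 75.4 and 80.4 CPM in 3D cells. Every 3D library was below every 2D library, and the log2 fold change was -0.42 ± 0.06 (SE, adjusted p = 1.6e-05). The scaffold SUZ12 (ENSG00000178691.11, chr17:31937007-32001038, plus strand) rose from 119 ± 2.97 to 160.3 ± 4.03 CPM (SD, n = 3), a log2 fold change of 0.42 ± 0.05 (SE, adjusted p = 5.0e-06). EED (ENSG00000074266.22, chr11:86201212-86278813, plus strand), the reader of the PRC2 mark, rose from 21.2 ± 0.826 to 26.8 ± 0.209 CPM (SD, n = 3), a log2 fold change of 0.34 ± 0.07 (SE, adjusted p = 6.6e-04). Beside the fall of EZH2, the summed level of 10 proliferation genes (MKI67, TOP2A, CCNB1, CCNA2, CDK1, MCM2, MCM5, PCNA, E2F1 and RRM2) was 3100 to 3181 CPM in 2D and 2317 to 2352 CPM in 3D libraries, with 2 genes called higher and 6 called lower. The part of proliferation in the change of EZH2 was not tested. The names of BMI1, RNF2, EZH2, SUZ12 and EED are also carried by 1 annotated pseudogene each, which could take or give reads. PCGF2, CBX7 and EED overlap genes on the opposite strand, and the strand setting of the counting is not given in the sources used here.

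**Figure D2:**
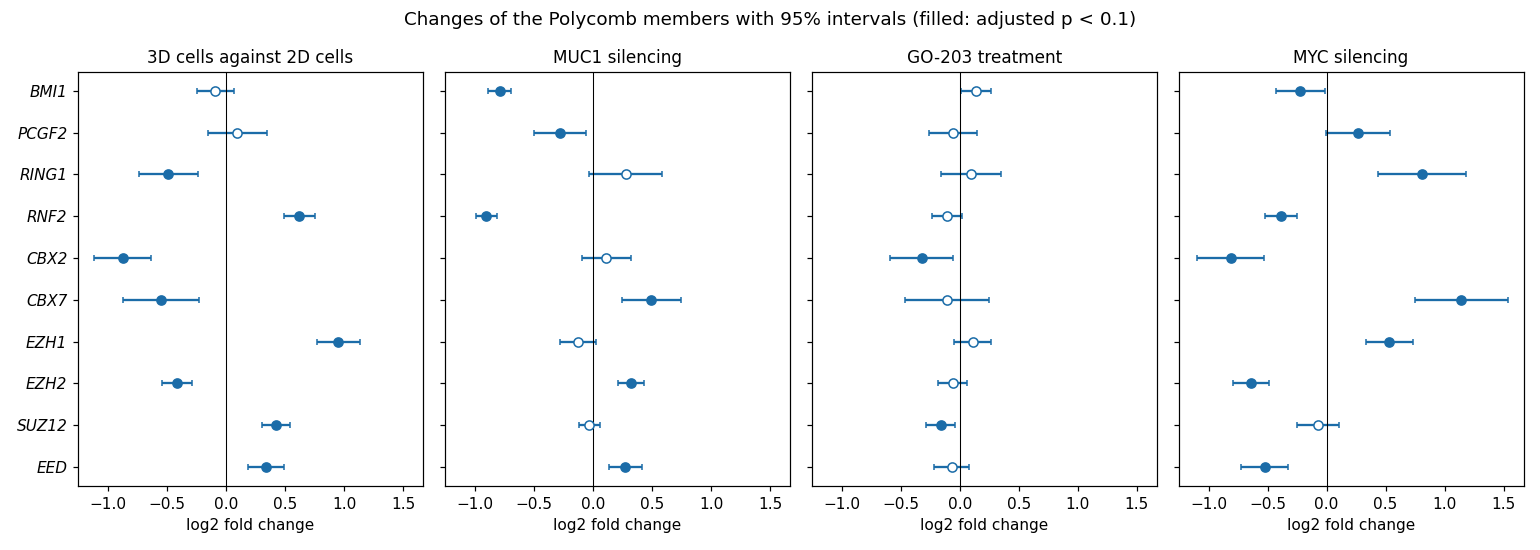
Log2 fold change (horizontal axis) of each Polycomb member (vertical axis) in the 4 comparisons (panels), with 95% intervals from edgeR's quasi-likelihood fit over 3 against 3 libraries; filled points passed an adjusted p of 0.1. The 3D panel has 4 filled points on each side of 0, and the GO-203 panel has 2 filled points, both below 0.

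Silencing MUC1 in mammospheres addressed which Polycomb transcripts follow MUC1. BMI1 and RNF2, the most abundant PCGF and RING members per length, fell by more than any other member, and PCGF2 fell less. EZH2, EED and CBX7 rose. These 6 of 10 called members compare with 62.2% of all genes tested, of which 30.7% were called higher and 31.6% lower. The groups did not overlap for 6 members, against 62.4% of all genes. Again no member passed an absolute log2 fold change of 1.5, against 8.82% of all genes. The median absolute log2 fold change was 0.28 over the members and 0.42 over all 19220 genes tested.

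BMI1 had 110.1, 102 and 104 CPM with vehicle and 59.2, 61.6 and 58.98 CPM with DOX. The DOX libraries were the lowest 3 of all 21 libraries for BMI1, and the log2 fold change was -0.79 ± 0.05 (SE, adjusted p = 1.2e-11), or 1.73-fold lower. RNF2 had 170.3, 165 and 174 CPM with vehicle and 89, 90.7 and 88.3 CPM with DOX, a log2 fold change of -0.90 ± 0.04 (SE, adjusted p = 2.5e-13), or 1.87-fold lower. The vehicle-treated cells of this line held the highest RNF2 level of the series, above the 104, 110.5 and 117 CPM of 3D cells without the shRNA vector, and the level after silencing lay below those 3D libraries. For PCGF2, values of 11.9, 10.2 and 9.16 CPM with vehicle and 9.199, 8.36 and 7.71 CPM with DOX overlapped, and the log2 fold change was -0.28 ± 0.11 (SE, adjusted p = 0.032). That call was lost without replicate 1 of the vehicle-treated or replicate 3 of the DOX-treated cells, at log2 fold changes down to -0.18, and when libraries were scaled by their totals alone.

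None of the other PRC1 members was called lower. CBX7 had 4.86, 4.71 and 5.61 CPM with vehicle and 6.47, 7.09 and 7.51 CPM with DOX, a log2 fold change of 0.49 ± 0.12 (SE, adjusted p = 0.0014), and its DOX libraries were all above its vehicle libraries. CBX2 had a log2 fold change of 0.11 with a 95% interval of -0.09 to 0.32. RING1 had 6.003, 5.505 and 4.799 CPM with vehicle and 7.501, 7.102 and 4.67 CPM with DOX, a log2 fold change of 0.28 with an interval of -0.03 to 0.59. It was not called (adjusted p = 0.12), with its DOX replicate 3 below all its vehicle libraries. Without that library the log2 fold change was 0.45 and passed the test. RING1 was also called, at 0.35, without replicate 1 of the vehicle-treated cells, and with both other count filters and with library totals alone.

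In PRC2, EZH2 had 47.8, 45.3 and 46.4 CPM with vehicle and 55.2, 56.9 and 59.3 CPM with DOX, a log2 fold change of 0.32 ± 0.05 (SE, adjusted p = 3.1e-05). The vehicle-treated libraries of this line were the lowest 3 of the series for EZH2, so the silenced cells remained below the 73.3, 75.4 and 80.4 CPM of 3D cells without the vector. EED rose from 19.3, 17.9 and 19.98 CPM to 22.9, 22.5 and 22.7 CPM, a log2 fold change of 0.27 ± 0.07 (SE, adjusted p = 0.0017). SUZ12 had a log2 fold change of -0.03 with an interval of -0.12 to 0.06, and EZH1 had -0.13 with an interval of -0.28 to 0.02. EZH1 was called, at -0.19, without replicate 3 of the DOX-treated cells. Scaling by library totals alone moved the median change over all genes from 0.02 to 0.19 on the log2 scale. Under it 6 members were called higher and 2 lower rather than 3 and 3: CBX2, RING1 and SUZ12 were then called higher, EZH1 turned to 0.039, and BMI1 and RNF2 stayed called lower. The proliferation genes summed to 1721 to 1777 CPM with vehicle and 1566 to 1626 CPM with DOX, with 3 genes called higher and 4 called lower. Their median log2 fold change was 0.06, and their part in the rise of EZH2 was not tested.

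GO-203 treatment asked the same question of a drug directed at MUC1-C. Of the Polycomb members, CBX2 and SUZ12 were called, both lower. These 2 of 10 stand beside 24.1% of all genes tested (11.1% higher and 12.9% lower), a share near that of the members. The groups did not overlap for 1 member, SUZ12, against 33.1% of all genes. CBX2 and SUZ12 had an adjusted p between 0.05 and 0.1, so that 0 members were called at an adjusted p below 0.05, where 3 had an unadjusted p below 0.05. DESeq2 called 2 members at an adjusted p below 0.1. No member passed an absolute log2 fold change of 1.5, against 0.757% of all genes. CBX2 had 9.49, 9.05 and 7.34 CPM in control 3D cells and 6.51, 7.46 and 6.301 CPM with GO-203, a log2 fold change of -0.32 ± 0.13 (SE, adjusted p = 0.09), and the groups overlapped. SUZ12 had 157, 158 and 165 CPM without and 138, 129.8 and 153 CPM with GO-203, a log2 fold change of -0.16 ± 0.06 (SE, adjusted p = 0.062). With each of the 6 libraries left out in turn, either 0 or 1 member was called. Scaling by library totals alone, or keeping genes with at least 10 counts in every library, gave 1 higher, BMI1, and 1 lower, SUZ12.

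BMI1, which fell on MUC1 silencing, had 96.4, 92.8 and 106 CPM with GO-203 against 87.9, 90.9 and 96 CPM without it. The log2 fold change was 0.14 with a 95% interval of 0.01 to 0.26 (adjusted p = 0.13), an interval that lies wholly above the change on MUC1 silencing. RNF2 had 101, 92.4 and 107 CPM with GO-203, a log2 fold change of -0.11 with an interval of -0.24 to 0.02. For EZH2 the interval was -0.18 to 0.06 and for EED -0.22 to 0.08, both around 0. MUC1 mRNA itself was 207 ± 21.8 CPM without and 255 ± 10.2 CPM with GO-203 (SD, n = 3), a log2 fold change of 0.33. The proliferation genes summed to 2317 to 2352 CPM without and 1753 to 1968 CPM with GO-203. Of these 10 genes 9 were called lower, and their log2 fold changes lay between -0.39 and -0.15 over all 10. The 3D libraries also served as the treated side of the comparison with 2D cells, so these 2 comparisons are not independent.

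Silencing MYC in mammospheres addressed which Polycomb transcripts follow MYC. CBX7, RING1, EZH1 and PCGF2 rose, and CBX2, EZH2, EED, RNF2 and BMI1 fell, which makes 9 of 10 members called against 58.5% of all genes tested, 30.3% higher and 28.1% lower. The groups did not overlap for 8 members, against 59.5% of all genes. No member passed an absolute log2 fold change of 1.5, against 10.5% of all genes. The median absolute log2 fold change was 0.53 over the members and 0.51 over all 19951 genes tested. MYC mRNA fell to 274 CPM from 414 CPM, so the silencing was partial. MUC1 mRNA rose in the same cells, from 69.0 to 167 CPM, a log2 fold change of 1.25 ± 0.11 (SE, adjusted p = 5.1e-06).

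In PRC1, the paralogs of the CBX pair and of the RING pair moved in opposite directions. CBX7 had 2.44, 2.09 and 2.37 CPM with vehicle and 3.91, 5.78 and 5.66 CPM with DOX, a log2 fold change of 1.14 ± 0.18 (SE, adjusted p = 3.3e-04). CBX2 had 8.78, 9.31 and 7.79 CPM with vehicle and 4.44, 5.13 and 5.39 CPM with DOX, a log2 fold change of -0.81 ± 0.13 (SE, adjusted p = 3.5e-04). Both pairs of groups were without overlap. RING1 rose from 9.53, 9.31 and 7.803 CPM to 11.8, 19.2 and 16.3 CPM, a log2 fold change of 0.81 ± 0.17 (SE, adjusted p = 0.0021), while RNF2 fell from 121, 117 and 117 CPM to 93.98, 89.05 and 91.6 CPM, a log2 fold change of -0.39 ± 0.06 (SE, adjusted p = 3.0e-04). The DOX-treated libraries were the highest 3 of all 21 for RING1.

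The PCGF pair carried the weakest calls. BMI1 had 93.4, 98.9 and 104 CPM with vehicle and 98.2, 79.6 and 79.4 CPM with DOX, and the groups overlapped through DOX replicate 1. Its log2 fold change was -0.22 ± 0.09 (SE, adjusted p = 0.066), and the call was lost in 4 of 6 fits with a library left out. PCGF2 had 10.5, 9.81 and 10.3 CPM with vehicle and 10.8, 11.8 and 14.6 CPM with DOX, a log2 fold change of 0.27 ± 0.12 (SE, adjusted p = 0.096). Its 95% interval of -0.01 to 0.54 included 0, and its value ranged from 0.14 to 0.35 over the 6 fits with a library left out. Its call was likewise lost in 4 of those 6 fits, as well as with DESeq2's size factors (RLE) in edgeR, library totals alone or no count filter.

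In PRC2, EZH2 had 90.2, 94.9 and 92.9 CPM with vehicle and 63.8, 59.9 and 57.1 CPM with DOX, a log2 fold change of -0.64 ± 0.07 (SE, adjusted p = 2.4e-05). EZH1 rose from 16.98, 19.1 and 18.5 CPM to 27.7, 26.7 and 25.7 CPM, a log2 fold change of 0.53 ± 0.09 (SE, adjusted p = 5.5e-04), and EED fell from 29.2, 28.5 and 32.03 CPM to 22.5, 20.4 and 20.2 CPM, a log2 fold change of -0.53 ± 0.09 (SE, adjusted p = 6.7e-04). In all 3 genes the groups were without overlap. SUZ12 had 150.4, 158 and 158 CPM with vehicle and 166, 134 and 149 CPM with DOX. Its log2 fold change of -0.07 (interval -0.25 to 0.11) was not called, but passed the test at -0.16 without DOX replicate 1. All 10 proliferation genes fell on MYC silencing, and their sum went from 2981 to 3040 CPM to 1605 to 1664 CPM. The part of reduced proliferation in the fall of EZH2 was not tested.

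The order of levels over the 7 groups is given as a description. Neighbouring groups overlapped in most of the 6 steps of this order for BMI1 and PCGF2 (5 steps each) and for RING1, EZH1 and SUZ12 (4 each), and in fewer for RNF2, CBX2, CBX7 and EED (3 each) and EZH2 (2). EZH2 was ordered 2D, vehicle-treated tet-MYCshRNA, 3D, GO-203-treated, DOX-treated tet-MYCshRNA, DOX-treated tet-MUC1shRNA and vehicle-treated tet-MUC1shRNA cells. Only 3D against GO-203-treated cells and the 2 DOX-treated groups overlapped in that order. The highest group mean exceeded the lowest by 3.17-fold for CBX2, 3.06-fold for CBX7, 2.902-fold for RING1 and by between 1.34-fold (SUZ12) and 2.38-fold (EZH1) for the other 7 members. SUZ12 was thus the steadiest member and the less abundant CBX and RING1 transcripts the most variable.

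The 3 mammosphere groups that received neither DOX nor GO-203 also differed from each other. RNF2 was 110.2 ± 6.503 CPM in 3D cells, 118 ± 2.59 CPM in vehicle-treated tet-MYCshRNA cells and 169.9 ± 4.66 CPM in vehicle-treated tet-MUC1shRNA cells (SD, n = 3). EZH2 was 76.3 ± 3.66, 92.7 ± 2.35 and 46.5 ± 1.27 CPM in the same groups, and CBX7 was 3.12 ± 0.169, 2.297 ± 0.184 and 5.05 ± 0.482 CPM. For EZH2 none of these 3 groups overlapped another. For RNF2 the highest 3D and the lowest vehicle-treated tet-MYCshRNA library both rounded to 116.6 CPM, and these groups did not overlap before rounding. These differences between lines are of the size of the silencing effects, and the line, passage, vehicle and vector that go with them cannot be told apart.

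Ratios of paralogs within a library do not depend on the scaling of libraries. The ratio of EZH2 to EZH1 counts was 8.82, 9.94 and 8.43 in 2D cells and 3.38, 3.32 and 3.83 in 3D cells, a change of -1.37 on the log2 scale. On MYC silencing it went from 5.32, 4.96 and 5.02 to 2.31, 2.25 and 2.22, a change of -1.18. On MUC1 silencing it went the other way, from 1.84, 1.86 and 1.82 to 2.43, 2.72 and 2.405, a change of 0.45. In each of these 3 comparisons the groups did not overlap and the two-sided exact permutation p was 0.1, the smallest that 3 against 3 libraries can give, so this test could not reach 0.05.

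The ratio of RNF2 to RING1 changed by 1.10 on the log2 scale in 3D cells, by -1.14 on MUC1 silencing and by -1.17 on MYC silencing, each without overlap. Its extremes were 28.4, 29.98 and 36.3 in vehicle-treated tet-MUC1shRNA cells and 7.94, 4.64 and 5.63 in DOX-treated tet-MYCshRNA cells. The ratio of CBX2 to CBX7 was 3.61, 4.46 and 3.29 in vehicle-treated and 1.13, 0.887 and 0.953 in DOX-treated tet-MYCshRNA cells, a change of -1.93, so that CBX7 counts came level with CBX2 counts after MYC silencing. The ratio of BMI1 to PCGF2 changed by -0.51 on MUC1 silencing without overlap, and by -0.48 on MYC silencing with overlap. Under GO-203 the BMI1 to PCGF2 ratio changed by 0.19 without overlap, and the other 3 pairs changed by -0.21 to -0.17 with overlap. With a library left out, the BMI1 to PCGF2 change ranged from -0.68 to -0.31 on MYC silencing and from 0.12 to 0.26 with GO-203. The other 3 pairs then lay between -0.31 and -0.072 with GO-203.

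**Figure D3:**
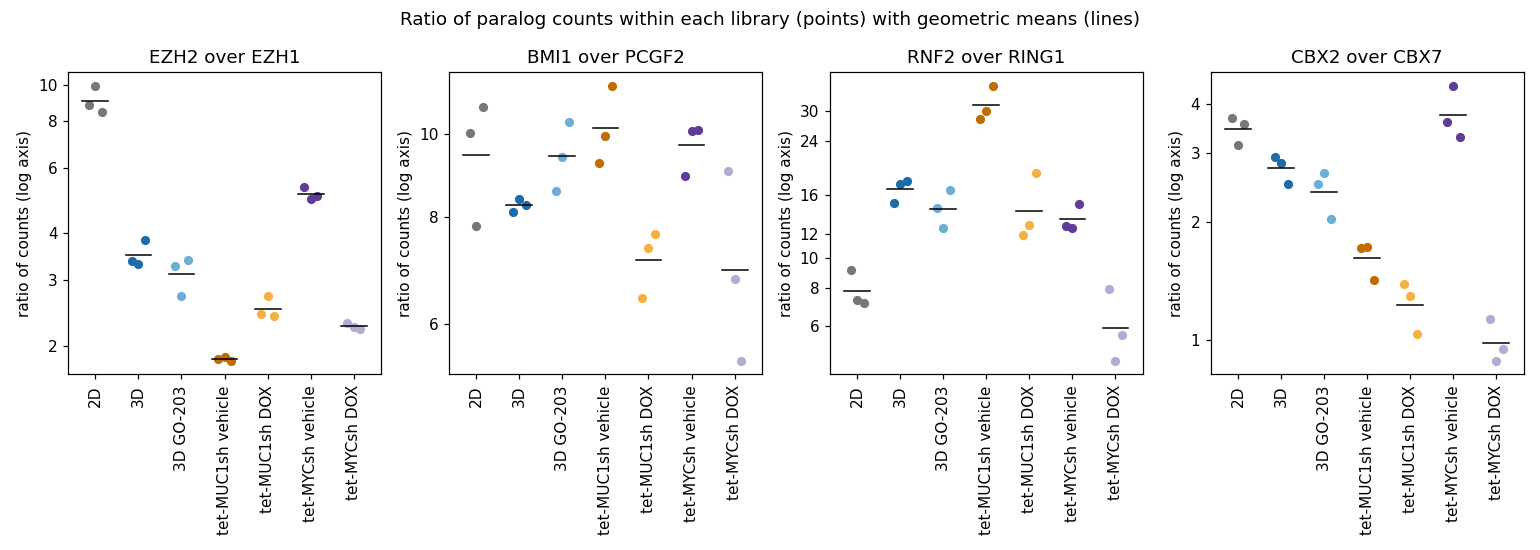
Ratio of the counts of 4 paralog pairs within each of the 21 libraries (points; logarithmic vertical axes) by group (horizontal axis), with lines at the geometric means of 3 libraries. The EZH2 to EZH1 ratio is highest in 2D cells, at a geometric mean of 9.04, and the CBX2 to CBX7 ratio falls from 3.75 to 0.986 on MYC silencing.

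Whether MUC1 and MYC silencing acted differently on the members was tested as a difference of their log2 fold changes over 12 libraries that the 2 comparisons do not share. MYC mRNA rose on MUC1 silencing (log2 fold change 0.25) and MUC1 mRNA rose on MYC silencing (1.25), so both genes changed in each comparison. The difference, MUC1 silencing minus MYC silencing, passed the test for 9 of 10 members, against 52.9% of all genes tested. It was above 0 for 3 of them and below 0 for 6, against 26.0% and 26.9% of all genes, and 0 exceeded 1.5 in size, against 16.2%. The log2 fold changes of EZH2, EED and CBX2 were higher for MUC1 than for MYC silencing, by 0.95, 0.79 and 0.91. These are differences of changes and not of levels, since EZH2 was at 57.1 CPM after MUC1 and 60.3 CPM after MYC silencing. For EZH2 and EED the changes were called with opposite signs in the 2 comparisons, and their differences had standard errors of 0.09 and 0.11 (adjusted p = 4.3e-08 and 1.1e-05). PCGF2 also had called changes of opposite sign, with a difference of -0.56 ± 0.17 (SE, adjusted p = 0.013). BMI1 and RNF2 were called lower in both comparisons, with the larger change on MUC1 silencing, with differences of -0.58 ± 0.11 (SE, adjusted p = 1.7e-04) and -0.53 ± 0.07 (SE, adjusted p = 5.3e-06). The log2 fold changes of EZH1, CBX7 and RING1 were lower than for MYC silencing, with differences of -0.67, -0.66 and -0.54. The call of RING1 (adjusted p = 0.088) was lost in 7 of 12 fits with a library left out, with library totals alone and with at least 10 counts in every library. SUZ12 had a difference of 0.03 with an interval of -0.16 to 0.22.

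**Figure D4:**
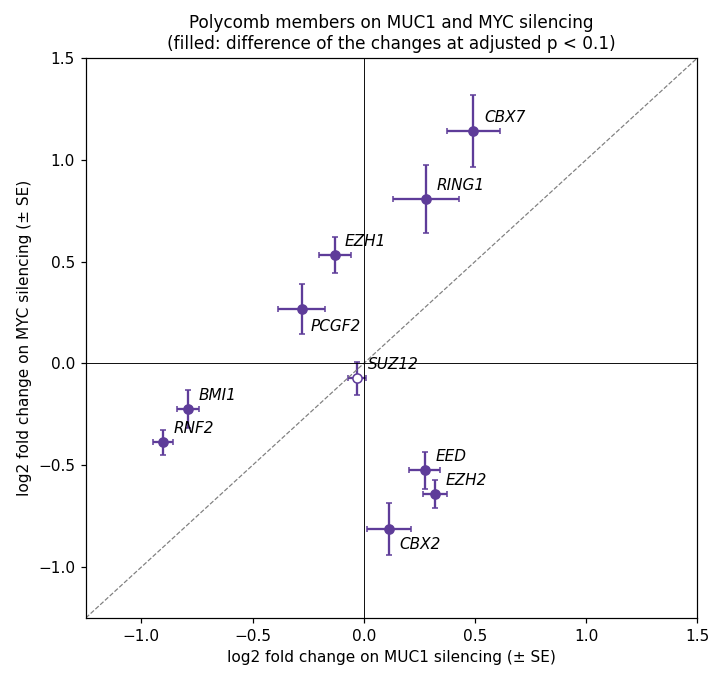
Log2 fold change of each Polycomb member on MUC1 silencing (horizontal axis) against MYC silencing (vertical axis), with standard errors and a dashed line of equal change; filled points had a difference of the changes at an adjusted p below 0.1. RNF2 and BMI1 lie at the lower left, CBX7 and RING1 at the upper right, and EZH2, EED and CBX2 at the lower right.

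The 2 ways of targeting MUC1-C were compared likewise, as GO-203 treatment minus MUC1 silencing. The 2 comparisons also differ in shRNA vector, puromycin selection and DOX, which cannot be told apart from the way of targeting. The difference passed the test for 7 of 10 members, against 44.9% of all genes tested. It was above 0 for 3 of them and below 0 for 4, against 24.1% and 20.8% of all genes, and 0 exceeded 1.5 in size, against 8.59%. The log2 fold changes of BMI1 and RNF2 were higher for GO-203 than for MUC1 silencing, by 0.92 ± 0.08 (SE, adjusted p = 2.8e-10) and 0.79 ± 0.08 (SE, adjusted p = 3.1e-09). Those of CBX7, CBX2, EZH2 and EED were lower, with differences of -0.60, -0.44, -0.38 and -0.35 on the log2 scale. These are again differences of changes and not of levels. RNF2 started at 110.2 CPM in 3D cells and 169.9 CPM in vehicle-treated tet-MUC1shRNA cells. It was at 99.95 CPM with GO-203 and 89.4 CPM after MUC1 silencing. The call of CBX2 was lost, at -0.36 (adjusted p = 0.109), without replicate 1 of the control 3D cells. The log2 fold change of EZH1 was higher by 0.23 (adjusted p = 0.086), a call that was lost with DESeq2, with both other scalings, with both other count filters, with all 21 libraries in one fit and in 8 of 12 fits with a library left out. PCGF2, RING1 and SUZ12 were not called, with intervals of -0.08 to 0.52, -0.59 to 0.23 and -0.28 to 0.01, although the difference of SUZ12 was called without replicate 3 of the GO-203-treated cells, with library totals alone and with at least 10 counts in every library. Scaling by library totals alone gave 2 higher and 5 lower here rather than 3 and 4, with a median over all genes of -0.15, and 4 higher and 5 lower rather than 3 and 6 in the difference of MUC1 and MYC silencing, with a median of 0.25.

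The members work with many other subunits, and 38 of these were followed as 4 lists: other PCGF, CBX, PHC and SCM subunits of PRC1 (10 genes), cofactors of variant PRC1 (11), accessory subunits of PRC2 (10) and enzymes that oppose Polycomb (7). Of the 38, 37 were in the table and 35 were tested in each comparison. Counts of genes that rose or fell, in these lists and in the list of targets below, are counts of called genes. In 3D cells 17 of these 35 rose and 13 fell, beside 32.0% higher and 31.7% lower over all genes tested, with a median log2 fold change of 0.13 against -0.01 over all genes. Among the PRC1 subunits, PHC2 and PHC1, which encode polyhomeotic proteins that join PRC1 complexes into larger assemblies, moved apart. PHC2 had 57.3, 61.1 and 55.9 CPM in 2D cells and 302, 283 and 293 CPM in 3D cells, which gave a log2 fold change of 2.33 ± 0.06 (SE, adjusted p = 6.3e-15). PHC1 went from 6.04 ± 0.258 to 0.841 ± 0.168 CPM (SD, n = 3), a log2 fold change of -2.85. AUTS2, a cofactor of a variant PRC1 that is linked to gene activation, had 108, 102 and 94.02 CPM in 2D cells and 0.8096, 1.81 and 0.992 CPM in 3D cells, which gave a log2 fold change of -6.40 ± 0.16 (SE, adjusted p = 4.1e-15), by far the largest change in these lists. PCGF5, RYBP (a subunit that replaces CBX proteins) and CBX8 had log2 fold changes of 1.16, 1.05 and -0.98. Of the 8 PRC2 accessory genes tested, 5 rose and 2 fell.

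On MUC1 silencing 11 of the 35 genes rose and 17 fell, beside 30.7% and 31.6% of all genes, and their median log2 fold change was -0.12. JARID2, which helps bring PRC2 to chromatin, rose from 71.3 ± 3.18 to 143 ± 2.99 CPM (SD, n = 3), a log2 fold change of 1.03 ± 0.05 (SE, adjusted p = 1.1e-13). PHF1, a Polycomb-like PRC2 subunit, fell from 32.5 ± 3.92 to 14.6 ± 1.403 CPM, a log2 fold change of -1.13 ± 0.09 (SE, adjusted p = 4.4e-10). In PRC1, L3MBTL2 and CBX6 rose, by 0.90 and 0.61, and BCORL1 and AUTS2 had log2 fold changes of -1.07 and -1.13. With GO-203, 2 of the 35 rose and 5 fell, beside 11.1% and 12.9% of all genes. PHC2 was again among these, at 212, 199 and 200.2 CPM with GO-203 and a log2 fold change of -0.49, beside PHF19 (-0.38), the deubiquitinase BAP1 (-0.34) and the H3K27 demethylase KDM6B, which rose by 0.33.

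On MYC silencing 10 of the 35 genes rose and 11 fell, beside 30.3% and 28.1% of all genes, and their median log2 fold change was 0.06. PHC1 rose from 3.97 ± 0.518 to 9.23 ± 1.31 CPM (SD, n = 3), a log2 fold change of 1.20 ± 0.15 (SE, adjusted p = 6.5e-05), and AUTS2 and PHF1 rose by 1.10 and 0.98. PHF19, another Polycomb-like subunit, fell from 68.6 ± 6.71 to 41.3 ± 5.26 CPM, a log2 fold change of -0.75 ± 0.11 (SE, adjusted p = 1.6e-04). KDM2B, which brings variant PRC1 to CpG islands, and YAF2, the paralog of RYBP, had log2 fold changes of -0.60 and -0.50.

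**Figure D5:**
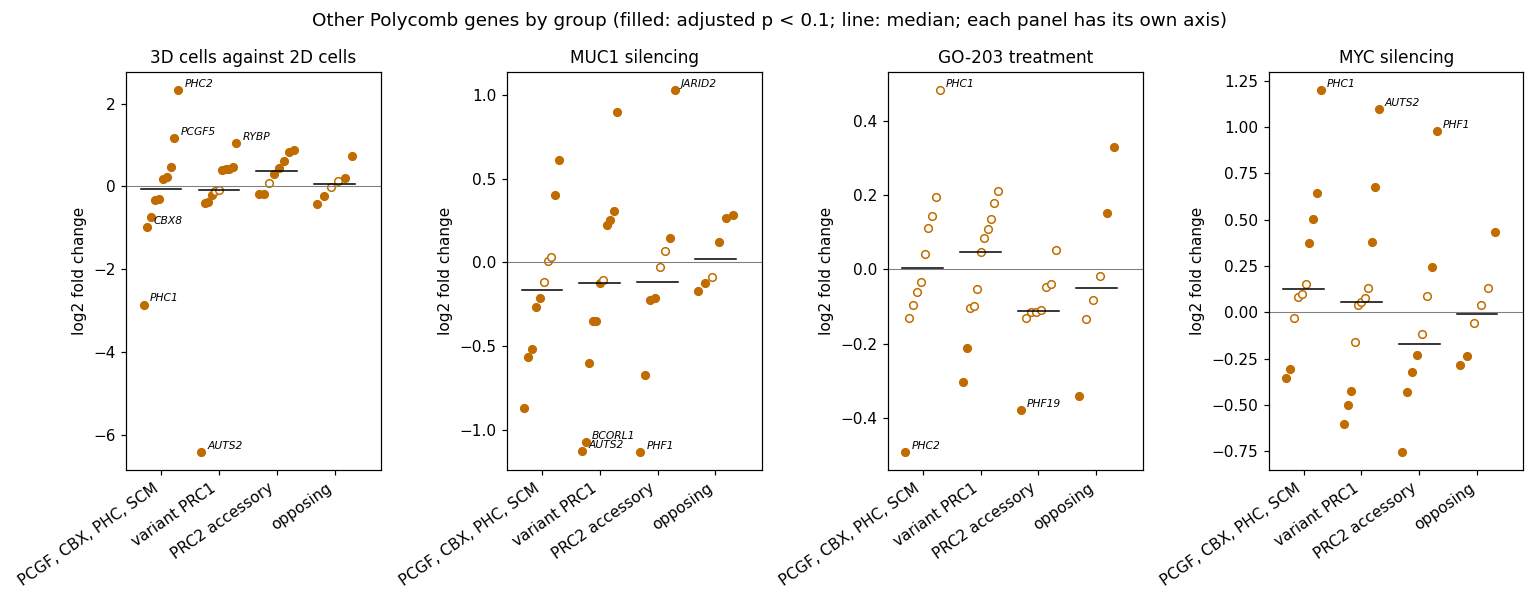
Log2 fold change (vertical axes, a separate scale in each panel) of the tested genes of the 4 wider lists (horizontal axis) in the 4 comparisons, with lines at the medians; filled points passed an adjusted p of 0.1, and genes far from 0 are named. AUTS2 stands apart in 3D cells at a log2 fold change of -6.40, and GO-203 leaves most points open.

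A list of 15 genes known as Polycomb targets was read beside the subunits, of which 14 were in the table and 9 or 10 were tested in each comparison. In 3D cells 4 rose and 6 fell, beside 32.0% and 31.7% of all genes. On MUC1 silencing 4 rose and 4 fell (30.7% and 31.6% of all genes), with GO-203 4 rose and 3 fell (11.1% and 12.9%), and on MYC silencing 5 rose and 1 fell of 9 (30.3% and 28.1%). The median log2 fold change of the tested targets was -1.27 in 3D cells, 0.07 on MUC1 silencing, -0.11 with GO-203 and 0.62 on MYC silencing. CDKN2B, a cyclin-dependent kinase inhibitor and classical PRC1 target, had 161, 154 and 164 CPM in 2D cells and 322, 319 and 332 CPM in 3D cells, which gave a log2 fold change of 1.02 ± 0.05 (SE, adjusted p = 8.2e-11). It rose with GO-203 by 0.82 and on MYC silencing by 2.11, from 59.7, 56.7 and 60.02 CPM to 261, 263 and 247 CPM. On MUC1 silencing the log2 fold change of CDKN2B was -0.52 ± 0.04 (SE, adjusted p = 1.7e-09).

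CNR1, the cannabinoid receptor gene, had 4, 2 and 2 counts in the 2D libraries and 1224, 1468 and 1620 counts in the 3D libraries. It rose from 26.4 to 69.02 CPM with GO-203, by 1.42, and from 1.82 to 28.9 CPM on MYC silencing, by 3.97, and had a log2 fold change of -2.29 on MUC1 silencing. GATA6, a developmental transcription factor, changed by -2.95 on the log2 scale in 3D cells, 1.45 on MUC1 silencing and 0.68 with GO-203. The axon guidance gene SLIT2 fell on both silencings, with log2 fold changes of -2.12 for MUC1 and -0.84 for MYC, and DAB2IP rose on both, by 0.75 and 0.77. DAB2IP had log2 fold changes of -1.81 in 3D cells and -1.31 with GO-203, and SLIT2 of -0.83 with GO-203. RUNX3, a tumour suppressor gene, changed by -4.38 on the log2 scale in 3D cells. Whether a target's change follows from a change in any subunit was not tested.

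The genes whose pattern over the 7 group means of log2(CPM + 1) was most like that of BMI1, among 8841 others with a mean of at least 10 CPM, were LCORL (Pearson r = 0.98), PSMB5 (0.97) and ZNF614 (0.96). For EZH2 they were EIF4E2 (r = 0.99), KIF23 (0.99) and SPDL1 (0.99), and KIF23 and SPDL1 are known to act in mitosis. These are the extremes of many correlations over 7 points that share their libraries, and are given as a description.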

How the data were processed

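From stranded libraries sequenced at both ends, the authors mapped reads with STAR (2.7.3a in the submitters' processing notes) to GRCh38 and deposited raw counts per gene from featureCounts, without normalization, for 21 libraries. The annotation release and the handling of multi-mapping reads are not given in the sources used here. The authors' table leaves cells blank for 4952 to 7587 genes in a block of libraries, and these were read as counts of 0. Members were matched by Ensembl ID to GENCODE release 44.

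Each comparison was fitted on its own libraries with edgeR 4.0.16 in R 4.3.3 (filterByExpr, TMM factors, quasi-likelihood test, Benjamini-Hochberg adjustment over all genes tested). Differences between comparisons were interaction terms over 12 libraries. Standard errors are the log2 fold change over the square root of F, and intervals use the fit's degrees of freedom. The scripts were tested on simulated data. No 2 replicates were alike within counting error (chi-square over its degrees of freedom 4.36 to 52.8 over 21 pairs).

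The members and gene lists were chosen with earlier results of these data known. Named genes of the wider and target lists were, per comparison, the 3 largest rises and falls among called genes with 100 or more counts on average and no overlap between groups. The values of 1 gene of the target list are not reported here, though the counts over that list include it. Alternatives were DESeq2 1.42.0, RLE factors, library totals alone, a low and a high count filter, all 21 libraries in one fit, the replicate number as a block, an adjusted p below 0.05, an absolute log2 fold change above 1.5, and leaving out each library.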

Additional observations from a re-analysis of the deposited data

Results flagged for a closer look

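Effects of 2 treatments on the same member that differed by a test of the difference itself are collected here. Between MUC1 and MYC silencing (MUC1 minus MYC, log2 scale), the difference was 0.95 for EZH2, 0.91 for CBX2 and 0.79 for EED, and -0.67 for EZH1, -0.66 for CBX7, -0.58 for BMI1, -0.56 for PCGF2, -0.54 for RING1 and -0.53 for RNF2. The lines also differ in hairpin and passage, which cannot be told apart from the silenced gene.

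Between GO-203 treatment and MUC1 silencing (GO-203 minus MUC1), the difference was 0.92 for BMI1, 0.79 for RNF2 and 0.23 for EZH1, and -0.60 for CBX7, -0.44 for CBX2, -0.38 for EZH2 and -0.35 for EED. These comparisons also differ in shRNA vector, puromycin selection and DOX, which cannot be told apart from the way of targeting. The groups of 3 libraries are too small for a test of single outlying libraries.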

How the results depend on the processing

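The number of members called stayed within 1.5 times its value under every alternative in both silencing comparisons, in 3D against 2D cells and in both tests of a difference, except that 0 members passed an absolute log2 fold change above 1.5 in any comparison. With that size threshold the genes called over the whole table numbered 3107 in 3D cells, 1695 on MUC1 silencing, 140 with GO-203, 2085 on MYC silencing, 3487 for MUC1 against MYC silencing and 1789 for GO-203 against MUC1 silencing. Under GO-203, 0 members passed an adjusted p below 0.05, and 0 to 1 were called with a library left out. With a library left out, counts ranged over 6 to 7 members on MUC1 silencing and 7 to 10 on MYC silencing.

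Changes near 0 turned sign. On MUC1 silencing, EZH1 was 0.039 and SUZ12 0.13 with library totals alone, where SUZ12 passed the test, and SUZ12 was 0.019 with at least 10 counts in every library. For the difference of MUC1 and MYC silencing, SUZ12 was -0.00085 in one fit of all 21 libraries and -0.053 to 0.11 with a library left out. In 3D cells, BMI1 ranged from -0.14 to 0.0034 and PCGF2 from -0.031 to 0.21 with a library left out. The cause of these shifts was not tested.

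Replicate numbers were shared between groups, but in no comparison did all 3 same-numbered pairs correlate above 0.1, so the numbers were not taken as pairs. The correlations were -0.19 to 0.07 in 3D against 2D cells, -0.06 to 0.10 on MUC1 silencing, 0.04 to 0.21 with GO-203 and -0.41 to 0.01 on MYC silencing. With the replicate number as a block, 8, 7, 3 and 7 members were called in these 4 comparisons. The block added RING1 on MUC1 silencing (0.25, adjusted p = 0.085) and BMI1 with GO-203 (0.13, adjusted p = 0.076), and on MYC silencing the calls of BMI1 (-0.23, adjusted p = 0.11) and PCGF2 (0.25, adjusted p = 0.17) were not made. Under GO-203, 3 of 3 libraries correlated best with their own number.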
